A study of Mus musculus with 30 samples.

Results

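The mRNAs of cytosolic ribosomal proteins were examined in the livers of diabetic mice fed sebacic acid. Members were taken by name: every probe whose gene symbol starts with Rpl or Rps and a number, or is Rplp0, Rplp1, Rplp2 or Rpsa, without the Rps6k kinases. This gave 84 probes for 66 genes, and 57 genes had a probe detected on at least 15 of the 30 arrays, out of 7905 detected and 16593 named genes on the array. The brightest detected probe stood for each gene. By symbol 24 of the 57 genes were counted with the small and 33 with the large subunit. These counts include 6 paralogs and lookalikes, among them Rps19bp1, which the symbol rule takes though it is no ribosomal protein. Rpl6, Rpl14, Rpl17, Rpl21, Rplp2, Rps15a, Rps23, Rpl3l and Rpl39l had no detected probe and gave no value.

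The animals were db/db males (BKS.Cg-m+/+Leprdb/J), which lack a working long leptin receptor and become obese and hyperglycaemic, and were 6 to 8 weeks old on arrival. The SA_15% group (n = 15) received chow with 77.6 g sebacic acid, a dicarboxylic acid of medium chain length, per kg food, supplying 15% of the energy. The Ctrl group (n = 15) received the same chow without it. After 42 days livers were taken from mice fasted for 6 h, and each liver was hybridized to 1 Illumina MouseRef-8 v1.1 array. As the whole series compares diabetic animals with and without the acid, neither group stands for a healthy liver.

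A ribosome needs a single copy of nearly every protein in both subunits, and cells adjust the supply of ribosomal proteins largely at translation. The mRNAs of this family begin with a C followed by a run of pyrimidines, the terminal oligopyrimidine start, through which mTOR signalling and Larp1 govern how many of them are on polysomes. An array measures mRNA level alone and is blind to that step. In whole liver, a change in level per cell and a change in the share of a cell type cannot be told apart. Ribosomal protein genes have many processed pseudogenes, and probes were named as in the platform annotation, without a check of cross-hybridization.

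The sequences around annotated transcription starts (RefSeq promoters, GRCm38.p6) are shown for the 4 members with the firmest increases, for 2 members with decreases and for Rps6, whose protein is the classical target of S6 kinase. Each stretch has 15 bases before the start and 15 from the start on, and capitals mark the longest C-led pyrimidine run that begins within 5 bases of the start.
Rpl24 (chr16:55966260-55966289, + strand): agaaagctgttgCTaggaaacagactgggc
Rpl7a (chr2:26910792-26910821, + strand): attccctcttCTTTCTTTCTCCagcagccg
Rpl27 (chr11:101442230-101442259, + strand): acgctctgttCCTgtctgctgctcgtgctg
Rps7 (chr12:28635939-28635968, - strand): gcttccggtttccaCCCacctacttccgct
Rpl27a (chr7:109519180-109519209, + strand): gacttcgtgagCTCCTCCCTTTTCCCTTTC
Rps25 (chr9:44407699-44407728, + strand): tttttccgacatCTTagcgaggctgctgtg
Rps6 (chr4:86857353-86857382, - strand): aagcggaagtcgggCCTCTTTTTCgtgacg
Rpl7a and Rpl27a, whose differences had opposite signs, both carry a long run, while Rpl24 and Rps25 do not at their annotated start.

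The promoter table held 50 of the 57 members. A C followed by at least 4 pyrimidines within 5 bases of the annotated start was found in 23 of the 50 members (46.0%) and in 21.2% of all 27025 genes of the table. It was found in 2 of 11 members that rose, 5 of 7 that fell and 16 of 32 that did not pass the test. When the start was allowed to lie within 15 bases, the counts were 8 of 11, 5 of 7 and 20 of 32, against 44.9% of all genes, so the split between members that rose and fell rested on the exact annotated start. The hexamer CCGGAA, the core of sites bound by ETS factors, lay on either strand in the 300 bases of 23 of the 50 members (46.0%) and in 15.1% of all genes. The octamer AAGATGGC, the core of YY1 sites, was found on either strand in 5 members (10.0%) and in 2.86% of all genes. For a gene with several annotated starts the one with the longest run was taken, for members and all genes alike, and both motifs can overlap the start element or each other.

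The family did not move as a block. In SA_15% livers 15 of the 57 members were higher (26.3%) and 7 were lower (12.3%) than in Ctrl livers, and 35 did not pass the test (limma, Benjamini-Hochberg adjusted p under 0.05 over 11329 detected probes). Among all detected probes 17.1% were higher and 19.4% lower. The median log2 difference, SA_15% minus Ctrl, was 0.05 over the members (quartiles -0.07 and 0.12) and -0.01 over all detected probes (quartiles -0.09 and 0.09). Single members lay between -0.25 and 0.54, and 5 members changed by 1.2-fold or more in either direction. Under the study's threshold (p under 0.001 and a fold of 1.3 over all probes), with limma p-values, 2 members, Rpl24 and Rpl7a, were higher and none was lower. Of all probes 1.04% and 0.806% were. The methods' ANOVA gave the same 2 and none. It was run here without the study's next step, a global error assessment that replaces the error variance. At an unadjusted p under 0.05 (limma) 19 members were higher and 12 lower. The share of all detected probes at that cutoff was not counted.

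**Figure D1:**
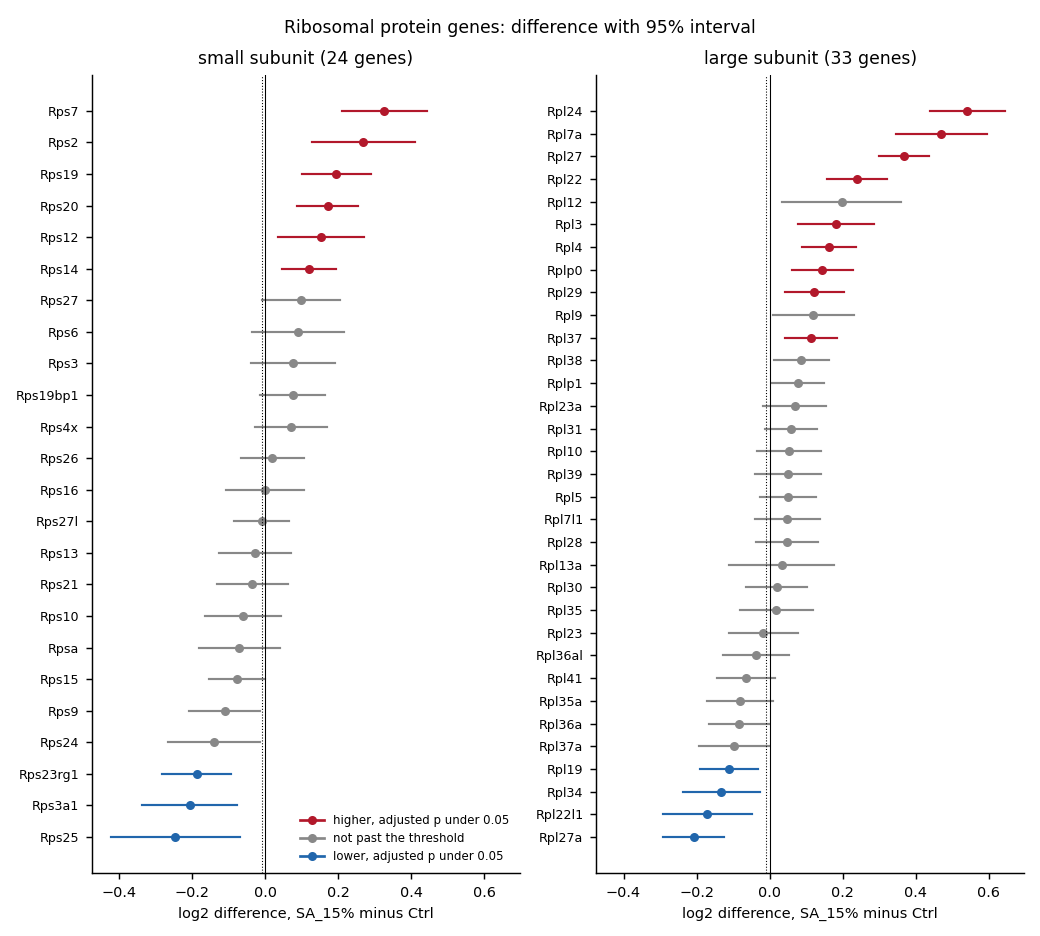
Log2 difference (SA_15% minus Ctrl, x axis) of each of the 57 members, with its 95% confidence interval, small subunit left and large subunit right, by symbol. Red and blue points passed an adjusted p of 0.05, grey ones did not, and the dotted line is the median of all detected probes. Rpl24 lies highest at 0.54 and Rps25 lowest at -0.25.

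The split between increases and decreases depended on how arrays were brought to a common scale. After quantile normalization 46.9% of all called probes were higher in SA_15%. When each array was centred on its median this share was 20.1%, and 4 of the 57 members were called higher and 15 lower. Of all 11329 detected probes 769 were then higher and 3066 lower. The median is taken over all 25697 probes, most of which are near background. The 15 were the 7 above and Rps9, Rps24, Rpl37a, Rpl36a, Rpl35a, Rps10, Rps15 and Rpl36al, with median centred differences of -0.26 for Rps9 to -0.14 for Rpl36al. Without normalization between arrays the share was 80.6%, with 7 members higher and none lower (limma, and none at an unadjusted p under 0.05). Of all detected probes 1733 were then higher and 417 lower. Rpl24, Rpl7a, Rpl27 and Rps7 were called higher under every scaling. The 7 members that fell and the other 11 that rose kept their sign under each scaling, except Rpl29 and Rpl37, whose median centred differences were -1.8e-05 and -0.02. All values below are quantile normalized log2 intensities unless another scaling is named.

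Rpl24, a large subunit protein at a bridge between the subunits whose mutation causes the Belly spot and tail phenotype of mice, had the largest difference. Its lowest, median and highest values were 11.81, 11.93 and 12.18 in SA_15% livers and 11.08, 11.44 and 11.78 in Ctrl livers. Every SA_15% liver lay above every Ctrl liver. The difference was 0.54 (SE 0.05, 1.46-fold, 95% interval 1.36 to 1.56, adjusted p = 1.08e-09, limma). Rpl27, a large subunit protein mutated in some patients with Diamond-Blackfan anaemia, spanned 12.71 to 13.01 (median 12.93) in SA_15% livers and 12.40 to 12.69 (median 12.53) in Ctrl livers. Here too the groups were apart, with a difference of 0.37 (SE 0.03, 1.29-fold, adjusted p = 7.18e-10, limma). These were the only 2 members without overlap between groups (3.51% of members), against 0.574% of all detected probes.

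Rpl7a, a large subunit protein encoded in the surfeit gene cluster, had values of 10.81, 11.01 and 11.20 (lowest, median, highest) in SA_15% livers and 10.15, 10.50 and 11.04 in Ctrl livers. All 15 SA_15% livers exceeded the Ctrl median, and 5 exceeded every Ctrl liver. The difference was 0.47 (SE 0.06, 1.38-fold, adjusted p = 5.07e-07, limma). Rps7, a small subunit protein that can also bind Mdm2, ran between 12.27 and 12.67 in SA_15% livers (median 12.43) and between 11.73 and 12.43 in Ctrl livers (median 12.18). The groups overlapped, with 7 SA_15% livers above all Ctrl livers and a difference of 0.33 (SE 0.06, adjusted p = 4.07e-05, limma).

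**Figure D2:**
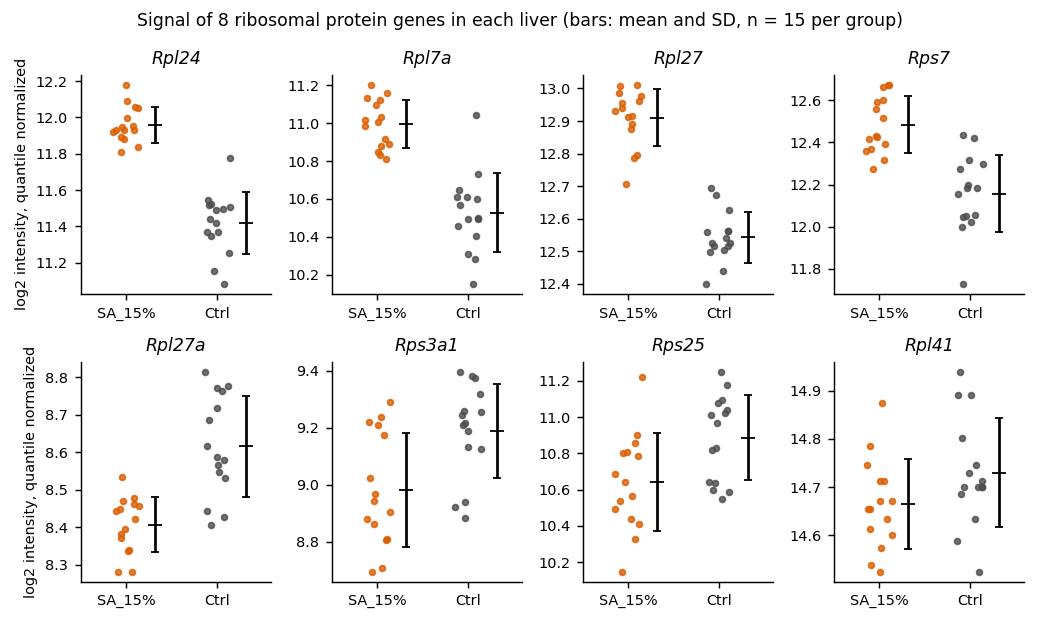
Quantile normalized log2 intensity of 8 members in each liver (points), SA_15% left and Ctrl right in each panel, with the mean and SD of 15 livers beside them. The groups are apart for Rpl24 and Rpl27 and overlap for the other 6 genes; each panel has its own axis.

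In the small subunit 6 of 24 members rose (25%) and 3 fell (12.5%), Rps23rg1 among them. Of all detected probes 17.1% were higher and 19.4% lower. The median difference of these members was 0.01. After median centring 1 of the 24 was higher (4.17%) and 7 were lower (29.2%), with a median of -0.10. Under that scaling 769 of all 11329 detected probes were higher and 3066 lower. Of the 8 detected head proteins 3 rose and 1 fell. Rps19, a head protein and the gene most often mutated in Diamond-Blackfan anaemia, spanned 12.13 to 12.54 (median 12.40) in SA_15% livers and 11.86 to 12.42 (median 12.14) in Ctrl livers. It was higher by 0.19 (SE 0.05, adjusted p = 0.00142, limma), and its weaker probe was higher by 0.24. Rps20, a head protein near the mRNA channel, spanned 13.73 to 14.16 in SA_15% livers and 13.59 to 14.02 in Ctrl livers, a difference of 0.17 (adjusted p = 0.00146, limma). Rps12, also of the head, was higher by 0.15 with an adjusted p of 0.0369, and leaving out any one of 10 arrays (SA_15% 06, 07, 09, 10, 11 and 15, Ctrl 02, 08, 12 and 13) took it past 0.05, to at most 0.0655.

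Rps25, the head protein needed by several viral internal ribosome entry sites, had the largest decrease, and the widest spread of the members among SA_15% livers. Its values were 10.15, 10.64 and 11.22 (lowest, median, highest) in SA_15% livers and 10.55, 10.97 and 11.25 in Ctrl livers. A single SA_15% liver lay above the Ctrl median and 6 lay below every Ctrl liver. The difference was -0.25 (SE 0.09, 0.843-fold, adjusted p = 0.0255, limma), and the SD was 0.27 in SA_15% livers and 0.24 in Ctrl livers.

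Of the 13 detected proteins of the body and platform 3 rose and 1 fell, where 17.1% and 19.4% of all detected probes did. Rps2, which lies at the mRNA entry, spanned 13.34 to 13.71 (median 13.53) in SA_15% livers and 12.79 to 13.60 (median 13.29) in Ctrl livers. It was higher by 0.27 (SE 0.07, adjusted p = 0.00278, limma), with all 15 SA_15% livers above the Ctrl median. Rps14, the platform protein lost in the human 5q- syndrome, was higher by 0.12 (adjusted p = 0.00928, limma) and had the smaller spread in SA_15% livers (SD 0.05 against 0.12 in Ctrl livers). Rps3a1, a platform protein, spanned 8.70 to 9.29 (median 8.94) in SA_15% livers and 8.88 to 9.40 (median 9.22) in Ctrl livers. It was lower by 0.21 on the log2 scale (difference -0.21, SE 0.06, adjusted p = 0.0115, limma), and 6 SA_15% livers lay below every Ctrl liver.

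Rps6 itself spanned 11.58 to 12.14 (median 11.81) in SA_15% livers and 11.29 to 12.02 (median 11.72) in Ctrl livers. Its difference of 0.09 (95% interval -0.03 to 0.21, adjusted p = 0.258, limma) did not pass the test. Rpsa, the laminin receptor precursor of the small subunit, was detected on 19 arrays, with a difference of -0.07 (adjusted p = 0.321, limma). It was the dimmest member.

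In the large subunit 9 of 33 members rose (27.3%) and 4 fell (12.1%), Rpl22l1 among them. Of all detected probes 17.1% were higher and 19.4% lower. The median difference of these members was 0.05. After median centring 3 of the 33 were higher (9.09%) and 8 lower (24.2%), with a median of -0.05. Under that scaling 769 of all 11329 detected probes were higher and 3066 lower. The stalk recruits the elongation factors. Rplp0, the base of the stalk and a frequent reference gene in quantitative PCR, spanned 6.80 to 7.16 (median 6.95) in SA_15% livers and 6.66 to 7.07 (median 6.83) in Ctrl livers. It was higher by 0.14 (adjusted p = 0.0064, limma), on a dim probe whose call was lost after median centring (adjusted p = 0.137). Rpl12, beside it, had a difference of 0.20 with an adjusted p of 0.0513. That p came under 0.05 without any one of 9 arrays (SA_15% 03, 04, 05 and 08, Ctrl 09, 10, 11, 14 and 15), at 0.0202 to 0.0478. It was also under 0.05 for Rpl12 with array weights (0.0385), a pooled error (0.00479) or probes detected on all 30 arrays (0.0494). Rplp1, an acidic tip protein, had a difference of 0.08 (adjusted p = 0.0858, limma), and was under the threshold without SA_15% 02 (0.0355) or Ctrl 05 (0.0439).

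Rpl3, at the peptidyl transferase centre, spanned 12.65 to 13.16 (median 12.93) in SA_15% livers and 12.49 to 13.05 (median 12.76) in Ctrl livers, with a difference of 0.18 (adjusted p = 0.00557, limma). Rpl10, which completes that centre late in assembly, differed by 0.05 and did not pass (adjusted p = 0.353). Rpl5, a partner of 5S rRNA and a regulator of Mdm2, differed by 0.05 (95% interval -0.03 to 0.13, adjusted p = 0.316, limma). Its partner Rpl11 and the ubiquitin fusion Rps27a had no probe with their name among those used here. Among 7 detected proteins along the exit tunnel and its rim 2 rose and 1 fell, where 17.1% and 19.4% of all detected probes did. Rpl4, which lines the tunnel, was higher by 0.16 (adjusted p = 0.000831, limma), with 14 SA_15% livers above the Ctrl median. Rpl19, at the rim, was lower (difference -0.11, adjusted p = 0.0258, limma), with 1 SA_15% liver above the Ctrl median. The call for Rpl19 was lost with a pooled error (adjusted p = 0.101) and without normalization.

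Rpl22 and Rpl22l1 had differences of opposite sign, that of Rpl22l1 on a probe near background. Rpl22, an RNA-binding protein of the large subunit, keeps its paralog Rpl22l1 low in mouse tissues. Rpl22 had values of 9.30, 9.52 and 9.66 (lowest, median, highest) in SA_15% livers and 9.08, 9.27 and 9.41 in Ctrl livers. Of the 15 SA_15% livers 10 lay above every Ctrl liver, and the difference was 0.24 (SE 0.04, adjusted p = 2.34e-05, limma). Rpl22l1 spanned 5.86 to 6.54 (median 6.16) in SA_15% livers and 6.08 to 6.67 (median 6.36) in Ctrl livers. It was lower (difference -0.17, SE 0.06, adjusted p = 0.024, limma), but its probe was detected on 17 of the 30 arrays. The call for Rpl22 was lost after median centring (adjusted p = 0.167) and without normalization (0.0533), while that for Rpl22l1 was lost without normalization (adjusted p = 0.845).

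Of the remaining decreases, Rpl27a was the firmest. This large subunit protein, whose mutation gives the Sooty foot ataxia mouse, had values of 8.28, 8.42 and 8.53 in SA_15% livers and 8.41, 8.59 and 8.81 in Ctrl livers (lowest, median, highest). No SA_15% liver exceeded the Ctrl median and 7 lay below every Ctrl liver. The difference was -0.21 (SE 0.04, 0.865-fold, adjusted p = 0.000171, limma). Rps23rg1, a retrogene copy of Rps23, had a difference of -0.19 (adjusted p = 0.00197, limma) on a probe detected on 24 arrays. Rpl34, of the large subunit, was lower with an adjusted p of 0.0441 (difference -0.13). That call was lost without any one of 15 of the 30 arrays (9 of SA_15% and 6 of Ctrl), at an adjusted p of 0.0556 to 0.0798. It was also lost for Rpl34 with array weights (0.0693), neqc background correction (0.0551), all probes tested (0.0628), the methods' ANOVA (0.0502) or no normalization.

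The 6 paralogs and lookalikes held 2 of the decreases, Rpl22l1 and Rps23rg1, and none of the increases (limma and ANOVA, none at an unadjusted p under 0.05). Rps27l, a stress-responsive paralog of Rps27, differed by -0.01 (95% interval -0.085 to 0.065). Rpl36al differed by -0.04, Rpl7l1 by 0.05 and Rps19bp1, a nucleolar protein that binds Rps19 and is no ribosomal protein, by 0.08, each with an adjusted p above the threshold (0.539, 0.396 and 0.183). Of the 10 detected members linked to Diamond-Blackfan anaemia in people, 3 rose (Rps7, Rps19 and Rpl27) and none fell by limma or ANOVA (1 at an unadjusted p under 0.05), where 17.1% and 19.4% of all detected probes did. After median centring 2 of the 10 were higher (Rps7 and Rpl27) and 3 lower (Rps24, Rpl35a and Rps10). Of all 11329 detected probes, 769 were higher and 3066 lower under that scaling. There the call for Rps19 was lost.

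More than 1 probe was detected for 9 members, and probes of a gene did not always give the same call. The brighter Rps9 probe had a difference of -0.11 (adjusted p = 0.0692) and the other one 0.17 (adjusted p = 0.000964, limma). The brighter Rpl38 probe differed by 0.09 and the weaker one by 0.26 (adjusted p = 3.36e-05). For Rpl23 the 2 brighter probes differed by -0.02 and -0.01 and the weakest by 0.19 (adjusted p = 0.00239, limma). The weaker probe of Rpl7l1 was lower (difference -0.08, adjusted p = 0.0416, limma) where the brighter one was not called. Both Rpl29 probes were higher, by 0.12 and 0.31, and the call for the brighter was lost with a pooled error (0.0707), after median centring and without normalization. No gene had 1 detected probe called higher and another called lower.

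Many members lie at the top of the array's range, where a scanner can saturate and flatten differences. The files carry no saturation mark. The brightest probes, Rpl41, Rpl23 and Rplp1, had mean log2 signals above 14, and their raw signals averaged 74.3%, 65.3% and 59.3% of the brightest probe of each array. Rpl41 spanned 14.52 to 14.88 (median 14.65) in SA_15% livers and 14.52 to 14.94 (median 14.70) in Ctrl livers, a difference of -0.07 (adjusted p = 0.2, limma) that was 0.17 without normalization and 0.03 after median centring. The brightest raw signal of an array ran from 33438 to 44013 in SA_15% and from 25523 to 35474 in Ctrl. Raw signals at the top did not end at 1 common value, but such probe means cannot show whether the scanner saturated. The SD within groups was 0.10 for these 3 members (median) and 0.11 for the 66 probes of that brightness. Among the 29 members at or above the median member's signal 9 were higher (31.0%) and none was lower (limma and ANOVA, 2 at an unadjusted p under 0.05), against 23.2% higher and 23.2% lower among the 504 detected probes as bright. After median centring 2 of the 29 were higher (Rpl27 and Rps7) and 3 lower (Rps24, Rpl37a and Rpl36al), against 8.73% higher and 41.1% lower of the 504 probes. Without normalization 4 of the 29 were higher (13.8%) and 0 lower, against 15.9% higher and 8.53% lower of the 504 probes. This limit was chosen after values were seen. The 25 members with a mean signal between 12 and 14 had a median difference of 0.07, while the 374 probes of that brightness had a median of -0.01.

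**Figure D3:**
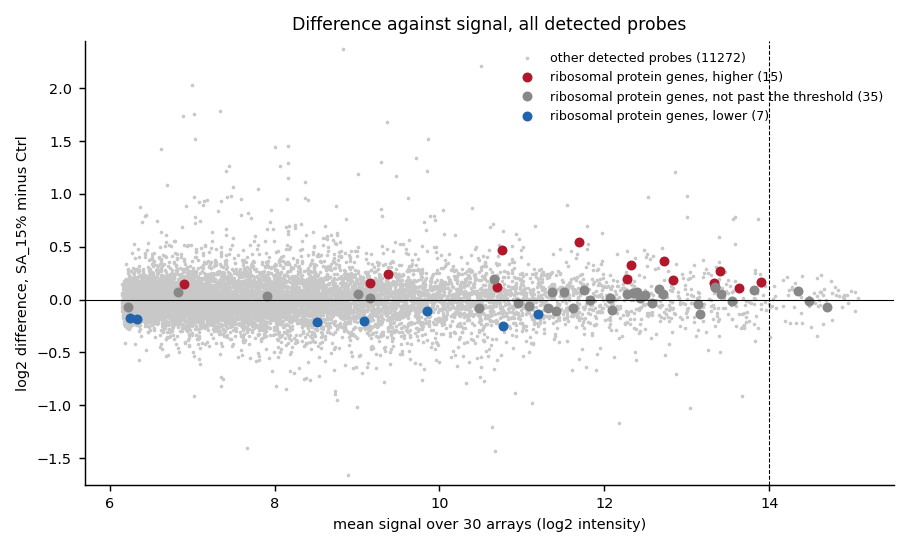
Log2 difference (SA_15% minus Ctrl, y axis) against the mean log2 signal over 30 arrays (x axis) for the 11329 detected probes, members in colour. On these quantile normalized arrays the 7 members that fell lie below a mean signal of 12, and the 3 members right of the dashed line at 14 lie between -0.07 and 0.08.

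Per liver, the median deviation of the 57 members from their own means was small. It ran from -0.11 to 0.12 in SA_15% livers (mean 0.02 ± 0.07, SD, n = 15) and from -0.14 to 0.10 in Ctrl livers (mean -0.02 ± 0.07). After median centring it ran from -0.18 to 0.23 in SA_15% livers (mean -0.03) and from -0.14 to 0.21 in Ctrl livers (mean 0.03), so the order of the group means turned round. The groups overlapped widely under both scalings.

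**Figure D4:**
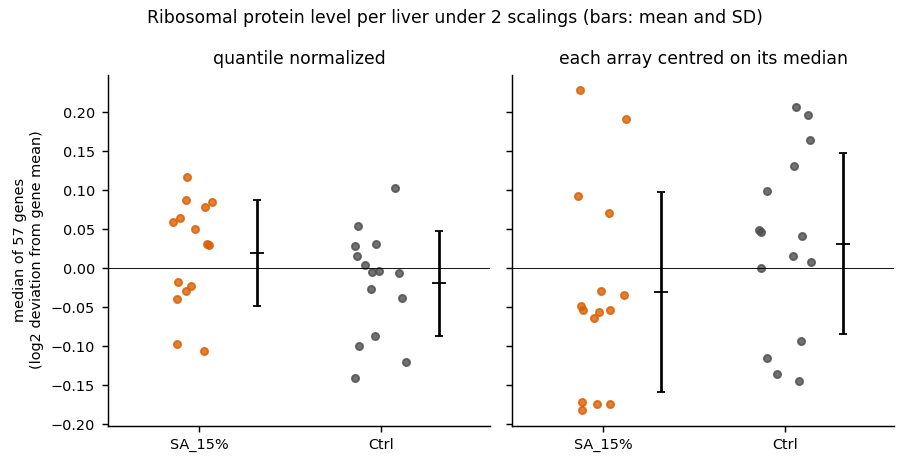
Median over the 57 members of the log2 deviation from each gene's mean, per liver (points), SA_15% left and Ctrl right in each panel. The mean and SD stand beside the points. Left, quantile normalized arrays, with SA_15% at 0.02 and Ctrl at -0.02 on average; right, arrays centred on their median, with SA_15% at -0.03 and Ctrl at 0.03.

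Genes that make or serve the ribosome were mixed as well, and most of their counts depended on the scaling. Of all 11329 detected probes 17.1% were higher and 19.4% lower after quantile normalization. After median centring 769 of these probes were higher and 3066 lower, and without normalization 1733 and 417. Of 32 detected assembly factors 5 rose and 4 fell, and the median difference was -0.0049. After median centring 1 was higher and 7 lower (median -0.08), and without normalization 3 were higher and 0 lower. Gnl3 (nucleostemin, a nucleolar GTPase) was higher by 0.38 (adjusted p = 2.18e-05, limma) and Mybbp1a, a nucleolar protein, by 0.26 (adjusted p = 0.000553). Nmd3, the export adaptor of the large subunit, was lower (difference -0.27, adjusted p = 1.42e-06), and so was nucleolin, Ncl (difference -0.19, adjusted p = 0.000616). Of 9 detected genes of RNA polymerase I, which makes rRNA, 1 rose and 3 fell, among them the activator Ubtf (difference -0.21, adjusted p = 0.000765, limma). Polr1f (difference -0.19) and Polr1e (difference -0.11) were the subunits that fell. Polr1h was higher by 0.11, and its median centred difference was -0.01. After median centring 0 of the 9 were higher and 4 lower.

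Of 25 detected initiation factors 5 rose and 3 fell, or 1 and 5 after median centring. Among all 11329 detected probes 17.1% were higher and 19.4% lower, and after median centring 769 were higher and 3066 lower. Eif6, which keeps large subunits from joining too early, spanned 9.95 to 11.13 (median 10.45) in SA_15% livers and 9.67 to 10.50 (median 9.99) in Ctrl livers, a difference of 0.41 (SE 0.10, adjusted p = 0.00124, limma). Eif2b1 was higher by 0.24 and Eif3l by 0.15, while Eif2s3x was lower (difference -0.15). Of 11 detected elongation and termination factors 2 rose and 4 fell, or 1 and 4 after median centring. Pelo and Hbs1l, partners in the rescue of stalled ribosomes, had opposite signs, Pelo higher by 0.33 (adjusted p = 0.00019) and Hbs1l lower (difference -0.25, adjusted p = 3.82e-05, limma). Abce1, which recycles ribosomes with them, was lower as well (difference -0.20, adjusted p = 0.00162). Of 14 detected further mRNAs known for a terminal oligopyrimidine start, a list that shares genes with the factors above, 5 rose and 1 fell, with a median of 0.05. After median centring 0 of these were higher and 3 lower (median -0.02). Nap1l1 was higher by 0.26, Eif3f by 0.14 and Eef1g by 0.13 (median centred, -0.01), and Eef1d was lower (difference -0.13). Fau, whose product yields the small subunit protein Rps30, differed by 0.05 (adjusted p = 0.399).

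Among 14 detected genes of mTOR and S6 kinase control 4 rose and 4 fell, or 1 and 4 after median centring. Of all 11329 detected probes 17.1% were higher and 19.4% lower, and after median centring 769 were higher and 3066 lower. Ddit4, an mTOR inhibitor induced by stress and glucocorticoids, had the largest difference in the 8 lists of ribosome-related genes outside the family. It spanned 7.16 to 8.37 (median 7.65) in SA_15% livers and 7.78 to 8.85 (median 8.25) in Ctrl livers, a difference of -0.54 (SE 0.11, adjusted p = 0.000228, limma). Mlst8, a subunit of both mTOR complexes, was higher by 0.31 (adjusted p = 2.34e-07) and Eif4ebp1, the translation repressor that mTOR phosphorylates, by 0.32 (adjusted p = 0.000612). Akt1s1, a further mTOR inhibitor, was lower (difference -0.23, adjusted p = 0.000903). These are mRNA levels, and the activity of the kinase was not measured.

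Among 70 detected genes of the mitochondrial ribosome 5 rose (7.14%) and 12 fell (17.1%), with a median difference of -0.02. Of all detected probes 17.1% were higher and 19.4% lower. After median centring 0 of the 70 were higher and 27 lower (median -0.11), and without normalization 0 were higher and 2 lower. Mrpl24, Mrps35, Mrps15 and Mrps2 had differences of -0.27, -0.27, -0.26 and -0.18, with adjusted p-values of 8.47e-06, 3.96e-07, 0.00018 and 0.000744 (limma). The difference between these genes and the cytosolic family was not tested.

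**Figure D5:**
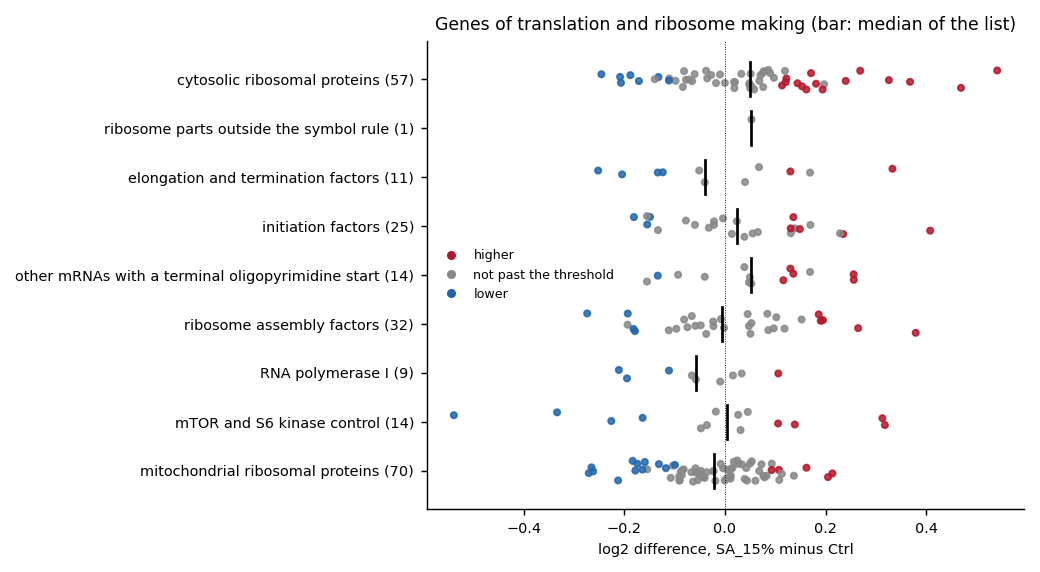
Log2 difference (SA_15% minus Ctrl, x axis) of each detected gene in the cytosolic ribosomal proteins and 8 other lists (number of genes in brackets). Red and blue points passed an adjusted p of 0.05 and the bar is the list's median, which on quantile normalized arrays lies between -0.06 and 0.05 in all 9.

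Some markers of other cells also passed the test, where 17.1% of all detected probes were higher and 19.4% lower. Of 10 detected Kupffer cell and macrophage markers 4 were higher in SA_15% (2 by ANOVA) and none was lower, with Vsig4 higher by 0.61, and the summed signal of the list ran from 1543 to 3352 in SA_15% and from 1130 to 2861 in Ctrl. Likewise 4 of 9 detected endothelial markers passed upwards and none downwards (summed signal 4508 to 6397 in SA_15%, 3970 to 5400 in Ctrl). After median centring 1 Kupffer cell marker was higher and 0 lower, and 1 endothelial marker was higher and 1 lower. Of all 11329 detected probes 769 were then higher and 3066 lower. Of the 3 red cell markers the haemoglobin gene Hba-a1 was higher by 0.77 and Slc4a1 by 0.23, while Alas2 differed by -0.12 (adjusted p = 0.242, limma), and all 3 summed to 11428 to 21313 in SA_15% and 5850 to 12892 in Ctrl. None of 6 stellate cell markers passed the test, and 2 of 5 detected hepatocyte markers were higher and 2 lower. The probes of 7 of 8 lymphocyte markers and of all 4 cholangiocyte markers on the array were not detected, and neither was the probe of the hepatocyte gene Alb, while Ttr and Cyp2e1 were bright. The part of these cells in the differences of ribosomal protein mRNAs was not tested.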

How the data were processed

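Per the labels and the study's methods, liver RNA of 15 SA_15% and 15 Ctrl mice was labelled with biotin and hybridized to Illumina arrays. Groups rest on the sample titles and the labelled agent, since the treatment text names the acid for Ctrl samples too. GenomeStudio 2009.2 is the software in the submitters' processing notes. The values deposited by the authors are the mean intensity of each of 25697 probes, without normalization or background correction, and a detection p-value for each probe and array. Their second deposited table, used for comparison, holds quantile normalized intensity on a linear scale.

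Quantile normalization was done on the linear scale and followed by a log2 transformation, the order in the study's methods. Both orders had been run when this was settled. The 11329 probes detected (p-value under 0.05) on 15 or more of 30 arrays were tested with lmFit and eBayes (limma 3.58.1, R 4.3.3), SA_15% against Ctrl, two-sided, and adjusted by Benjamini-Hochberg over all of them. The code was tested on simulated data, where the pooled error made more false calls than limma. Replicates are separate mice. The number of arrays limits the precision. Mean array intensity was 327 to 498 in SA_15% and 314 to 451 in Ctrl, and arrays of 1 group correlated at 0.988 to 0.996. The array's chip is not given in the sources used here, so no chip block was fitted.

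Gene names came from the platform annotation (23978 probes named, 1719 not). Members and lists were chosen with earlier results of these data known. Named by rule were the 10 largest increases and all decreases past the threshold, the 5 brightest and 5 dimmest members, members with set roles, paralogs, members with discordant probes, and up to 4 genes of each list with the smallest p. Other named members, Rps23rg1 as a lookalike, signal tiers and sequence motifs were chosen after values were seen.

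Alternatives covered scaling, background correction, array weights, filters, the test and its variance prior, a block on replicate number, the probe rule, thresholds and leaving out each array.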

Additional observations from a re-analysis of the deposited data

How the results depend on the processing

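After median centring 4 members were called higher and 15 lower, with a median difference of -0.067 (all detected probes -0.066), and all 4 and the 7 lower ones of the quantile normalized arrays were among them. Of the 11329 detected probes 769 were higher and 3066 lower. Without normalization between arrays 7 members were higher and 0 lower, with 2150 probes called in all (1733 higher and 417 lower). With p under 0.001 and a fold of 1.3 over all probes, 2 members were higher and 0 lower and 475 probes were called, or 2, 0 and 452 with the methods' ANOVA. After median centring the differences of Rpl29 and Rpl37 turned to -1.8e-05 and -0.023. The cause was not tested. The call and sign of Rpl24, Rpl7a, Rpl27 and Rps7 were the same under all 13 other settings with an adjusted p. Quantile normalization on the log2 scale, added after seeing the data, gave the same counts of 15 and 7, and leaving out the paralogs and lookalikes gave 15 and 6 (15 and 5 also without Rps23rg1, added after seeing the data). Leaving out each array in turn gave 14 to 17 members higher, 6 to 10 lower, a median difference of 0.04 to 0.06 and 3924 to 4128 probes called. Among members that did not pass, Rpl12, Rpl37a, Rpl38, Rpl9, Rplp1, Rps15, Rps24 and Rps9 came under the threshold without 1 array, in 1 to 9 of the 30 fits each.

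Replicate numbers are shared by the groups, but nothing in the sources says that they pair the mice. Deviations of same-numbered arrays correlated at -0.07 to 0.39 (median 0.16), over 0.1 in 10 of 15 pairs and not in all, so numbers were not taken as pairs. Some structure by number was shared by the groups, and the main test did not model it. Of 15 SA_15% arrays 6 correlated best with their own number. The first principal component of the deviations held 16.9% of their variance. On it numbers 11 to 15 lay at -0.06 to 0.35 in SA_15% and 0.11 to 0.27 in Ctrl. Numbers 1 to 10 lay at -0.31 to 0.01 in SA_15% and -0.39 to 0.15 in Ctrl. The source of this structure was not tested. With the number as a replicate block 16 members were higher and 7 lower, with a median of 0.05 and 4459 probes called, and of the members only the call for Rpl12 changed (adjusted p = 0.0184).

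Signal over background limits Rpsa, Rpl22l1 and Rps23rg1, detected on 19, 17 and 24 of the 30 arrays, and the brightest members could be flattened by an upper limit of the scanner that the files do not show.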
